A study of Mus musculus with 4 samples.

Results

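The genes described here encode 9 secreted antagonists of bone morphogenetic proteins (BMPs) and activins, namely Nog, Chrd, Chrdl1, Bmper, Grem1, Nbl1, Sost, Sostdc1 and Fst. They were chosen by name, out of 21911 protein-coding genes on the mouse chromosomes, together with the H3K27me3 peaks assigned to them by symbol in the authors' tables or lying in the gene or within 10 kb of it. By this rule 21 of 10223 peaks belonged to them in the library from 500 cells, and 22 of 15282 peaks in the library from 15000 cells. The cells were erythro-myeloid progenitors (EMPs), the yolk sac cells that give rise to definitive erythroid and myeloid lineages, sorted at E10.5 (the embryonic day) as KIT+CD41+CD16/32+ from mice of strain C57BL/6. The genotype label of every library combines floxed Ezh2 alleles and a Tie2-Cre notation with the words wild type, and the study treats the cells as wild type; Tie2-Cre is active in endothelium and in the blood cells that arise from it. How many yolk sacs were pooled is not given in the sources used here. H3K27me3 was profiled by CUT&RUN, in which an antibody tethers a nuclease that releases the marked fragments for sequencing. There were 4 libraries, 1 with the H3K27me3 antibody and 1 with control IgG for each cell number. With 1 library per cell number there were no replicates, no test was possible, and a difference between cell numbers is a difference between 2 libraries that also differed in read length, PCR cycles, instrument and peak threshold.

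H3K27me3 is deposited by Polycomb repressive complex 2, whose catalytic subunit is Ezh2 or Ezh1, and is typically found over the starts of developmental genes that a cell keeps silent. BMPs and activins are dimeric ligands that signal through serine/threonine kinase receptors and SMAD proteins, and BMP signalling takes part in the formation of blood from mesoderm. Secreted antagonists bind these ligands outside the cell and keep them from their receptors. They fall into 4 structural families: noggin; chordin and its relatives with cysteine-rich repeats (Chrd, Chrdl1, Bmper); the DAN family with a cystine knot (Grem1, Nbl1, Sost, Sostdc1); and follistatin. Sclerostin and the product of Sostdc1 also bind the Wnt coreceptors of the LRP type.

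For Chrd, Grem1, Bmper, Nbl1 and Sost, RefSeq (GRCm38.p6, the assembly also called mm10) gave the 250 bases that precede the annotated start, printed on the strand of the gene with CpG dinucleotides in capitals. They are shown because H3K27me3 is known to favour unmethylated CpG-rich DNA, and because the promoter of Sost departs from the others in this respect. The windows are chr16:20732877-20733126 for Chrd (plus strand, 28 CpG), chr2:113758649-113758898 for Grem1 (minus strand, 24 CpG), chr9:23222826-23223075 for Bmper (plus strand, 24 CpG), chr4:139092971-139093220 for Nbl1 (minus strand, 36 CpG) and chr11:101967016-101967265 for Sost (minus strand, 6 CpG).
Chrd: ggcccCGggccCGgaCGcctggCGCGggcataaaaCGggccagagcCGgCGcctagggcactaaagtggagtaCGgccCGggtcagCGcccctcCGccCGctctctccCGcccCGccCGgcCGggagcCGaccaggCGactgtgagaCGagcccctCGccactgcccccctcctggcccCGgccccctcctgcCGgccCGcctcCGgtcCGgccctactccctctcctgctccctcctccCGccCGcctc
Grem1: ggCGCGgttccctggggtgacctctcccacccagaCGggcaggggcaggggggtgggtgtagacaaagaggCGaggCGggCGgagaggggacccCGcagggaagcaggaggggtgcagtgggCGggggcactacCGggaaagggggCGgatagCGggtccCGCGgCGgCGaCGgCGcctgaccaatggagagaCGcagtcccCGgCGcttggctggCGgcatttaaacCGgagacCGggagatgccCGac
Bmper: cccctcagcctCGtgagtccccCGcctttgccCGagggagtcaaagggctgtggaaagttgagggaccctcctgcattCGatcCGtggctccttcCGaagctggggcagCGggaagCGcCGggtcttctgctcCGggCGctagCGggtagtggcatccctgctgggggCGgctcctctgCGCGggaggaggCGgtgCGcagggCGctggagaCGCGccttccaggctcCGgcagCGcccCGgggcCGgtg
Nbl1: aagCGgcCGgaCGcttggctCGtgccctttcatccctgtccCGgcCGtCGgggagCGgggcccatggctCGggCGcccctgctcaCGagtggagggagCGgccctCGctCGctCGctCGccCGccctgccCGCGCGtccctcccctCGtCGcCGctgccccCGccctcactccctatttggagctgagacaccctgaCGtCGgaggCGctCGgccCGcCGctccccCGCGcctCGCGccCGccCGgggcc
Sost: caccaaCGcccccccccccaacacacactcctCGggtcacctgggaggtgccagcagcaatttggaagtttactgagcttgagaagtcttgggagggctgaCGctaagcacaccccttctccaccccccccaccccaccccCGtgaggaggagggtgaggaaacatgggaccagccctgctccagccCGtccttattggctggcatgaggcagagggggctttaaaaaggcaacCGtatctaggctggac
All 250 bases lay in a peak of the 15000-EMP library for Chrd, Grem1, Bmper and Nbl1, and 161 of the 250 for Sost. In the 500-EMP library 0 of the 250 bases lay in a peak for each of the 5 genes.

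H3K27me3 was found at 8 of the 9 antagonist genes in both libraries, and Sostdc1 was the gene without it. A peak lay within 3 kb of the transcription start site (TSS, the 5′ end of the GENCODE gene) of these 8 genes with 500 EMPs, where 9.94% of all protein-coding genes had one. The same 8 had one with 15000 EMPs, against a background of 17.0%, and 9.84% of protein-coding genes had a peak in both libraries. The 9 genes were chosen with earlier results of these data known. Of 9 further genes for secreted antagonists or related proteins, 2 had such a peak with 500 EMPs and 4 with 15000 EMPs. The count was again 8 of 9 in each library for a peak in the gene or within 10 kb, against 15.1% of protein-coding genes with 500 EMPs and 25.0% with 15000 EMPs. The files used here hold positions of peaks without heights or read counts, so that a gene either has a peak or does not. The level of the mark was not examined. The 500-EMP peaks were short, and with peaks of at least 500 bp alone 3 of the 9 genes, Bmper, Nbl1 and Sost, had one within 3 kb. The share of all protein-coding genes with a peak of that width is not given here, so this count has no background.

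The libraries differed in whether the peak reached the TSS. A peak ran across the TSS of 7 of the 9 genes with 15000 EMPs, all but Fst and Sostdc1, against 8.64% of protein-coding genes, or 50.8% of those with a peak within 3 kb. A peak ran across the TSS of 0 of the 9 genes with 500 EMPs, against 1.41% of protein-coding genes, or 14.1% of those with a peak within 3 kb. The latter count was 2 when peaks within 3 kb of each other were joined, and also when the TSS of any annotated transcript was allowed. With 15000 EMPs the count of 7 became 8 with peaks within 1 kb joined, and also with the TSS of any annotated transcript. The shares of all protein-coding genes under these settings are not given here. The peak across the TSS was wider than 5 kb at 4 of the 7 genes, Sost (5954 bp), Chrd (5712 bp), Nog (5231 bp) and Nbl1 (5055 bp), and 25.0% of all protein-coding genes with their TSS covered in the 15000-EMP library had a peak of that width there.

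**Figure D1:**
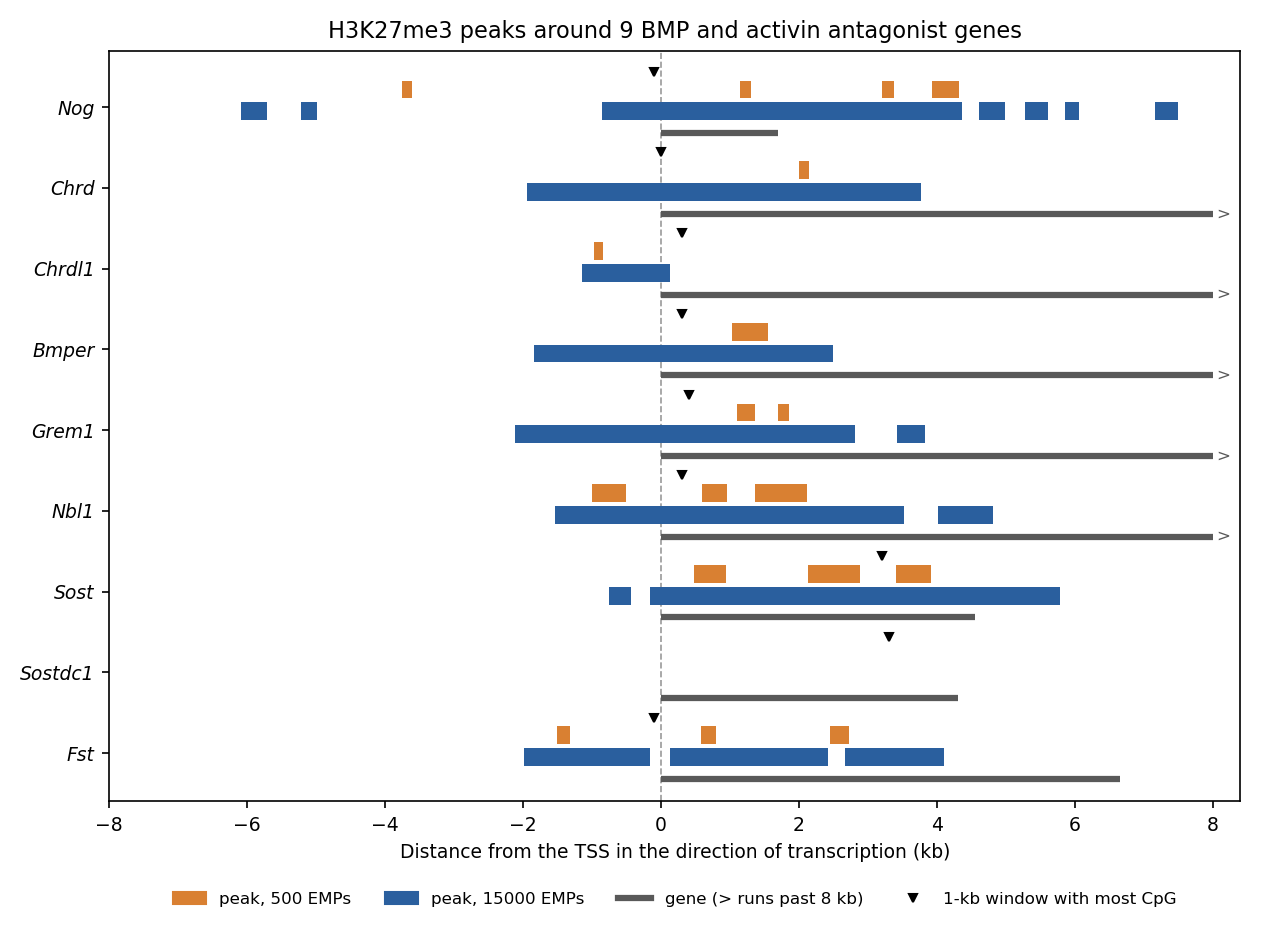
Position of every H3K27me3 peak from 8 kb before to 8 kb after the TSS (x axis, kb in the direction of transcription) of the 9 antagonist genes (rows), with peaks of the 500-EMP library in orange, peaks of the 15000-EMP library in blue, the gene as a grey line and the centre of the CpG-richest 1-kb window as a black triangle. Blue peaks cross the TSS of 7 genes and no orange peak crosses any, and Sostdc1 has no peak.

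The covered length was compared next, as the number of bp lying in peaks from 3 kb before to 3 kb after the TSS, a window of 6001 bp. The median over the 9 genes was 423 bp with 500 EMPs and 4334 bp with 15000 EMPs. The 500-EMP median depended on the setting, at 0 bp with peaks of at least 500 bp alone and 756 bp with peaks within 3 kb joined. The median over all protein-coding genes was 0 bp in both libraries, and over those with a peak it was 789 bp with 500 EMPs and 2744.5 bp with 15000 EMPs. Hence the 8 marked antagonist genes, with a median of 4400 bp, lay mostly above the middle of the marked genes with 15000 EMPs, whereas with 500 EMPs, where their median was 470.5 bp, 6 of 8 lay below it. These medians describe the libraries and were not tested.

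**Figure D2:**
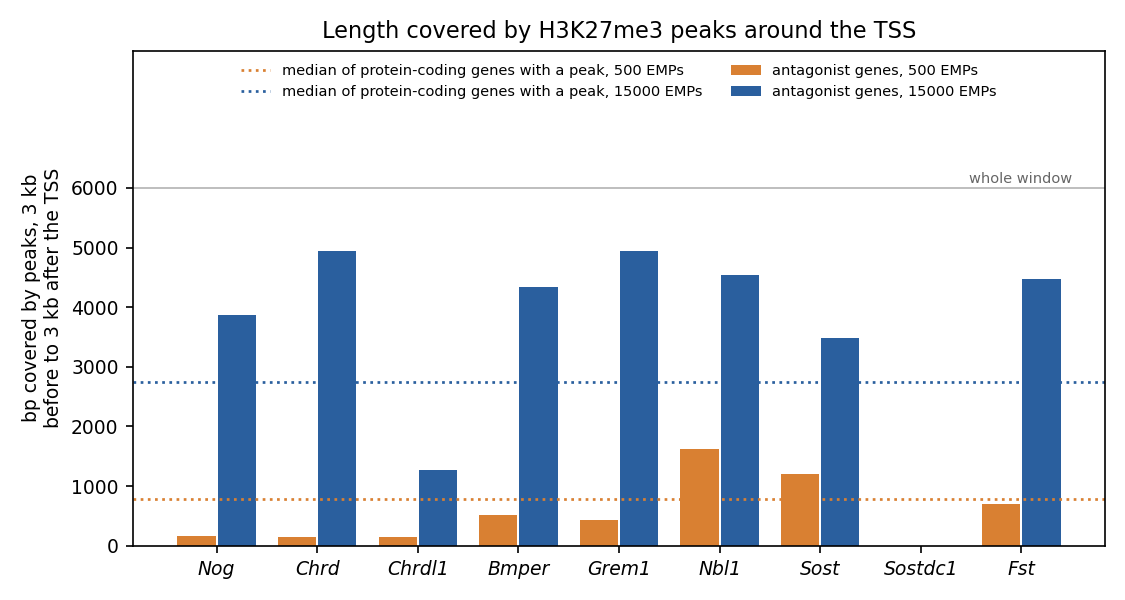
Number of bp covered by H3K27me3 peaks in the 6001-bp window centred on the TSS (y axis, bp) for each antagonist gene with 500 EMPs (orange bars) and 15000 EMPs (blue bars), with dotted lines at the medians of protein-coding genes that have a peak, 789 and 2744.5 bp. With 15000 EMPs 7 genes lie above the median line and Chrdl1, at 1275 bp, lies below it, and with 500 EMPs Nbl1 and Sost lie above it.

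Noggin, the product of Nog, binds BMPs with high affinity and is a classical signal of the embryonic organizer. Nog lies at chr11:89300638-89302332 on the minus strand and is a gene of 1695 bp. With 15000 EMPs a peak of 5231 bp (chr11:89297964-89303194) ran from 862 bp before the TSS to 4368 bp after it and held the whole gene with all 696 bp of its coding sequence. A further 6 peaks of 214 to 383 bp flanked it within 10 kb, 4 beyond the 3′ end and 2 upstream. With 500 EMPs there were 4 peaks, of 396, 170, 166 and 137 bp. The peak of 166 bp lay 1145 bp after the TSS in the gene, and the peaks of 396 and 170 bp lay beyond its 3′ end. These 3 lay inside the 5231-bp peak, whereas the peak of 137 bp, 3614 bp upstream of the TSS, overlapped no peak of the 15000-EMP library. Covered length in the TSS window was thus 166 bp with 500 EMPs and 3863 bp with 15000 EMPs. The noncoding gene Gm2018 starts 391 bp from the TSS of Nog on the opposite strand, and its start lay in the 5231-bp peak.

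Chordin, encoded by Chrd, holds BMPs in an inactive complex until tolloid-type proteases cleave it. Chrd lies at chr16:20733127-20742384 on the plus strand. With 15000 EMPs a single peak of 5712 bp (chr16:20731189-20736900) ran from 1938 bp before to 3773 bp after the TSS, and 4939 bp of it fell in the TSS window. With 500 EMPs the only peak was one of 137 bp, the smallest width in that list, 2006 bp after the TSS and with 126 bp in coding sequence. The authors' table gave that peak to Thpo, the gene of thrombopoietin, so that Chrd had a row in the table for 15000 EMPs but none in that for 500 EMPs. Thpo is transcribed from the opposite strand and starts 1384 bp from the TSS of Chrd, and the 5712-bp peak covered both starts. The data cannot assign the peak to Chrd or to Thpo.

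Chrdl1, whose product resembles chordin and binds BMPs, carried the shortest domain among the marked genes. The gene lies at chrX:143285674-143394262 on the minus strand. With 15000 EMPs the only peak, of 1275 bp, ran from 1149 bp before to 125 bp after the TSS (chrX:143394137-143395411). With 500 EMPs there was a single peak of 137 bp, from position -972 to position -836 relative to the TSS. Bmper, which binds BMPs and acts on them in endothelial cells, lies at chr9:23223076-23485200 on the plus strand. It had a peak of 4334 bp with 15000 EMPs (chr9:23221242-23225575), from 1834 bp before to 2499 bp after the TSS. With 500 EMPs a peak of 518 bp lay within that domain, in an intron and 1036 bp after the TSS. The authors' table for 15000 EMPs assigned 2 more peaks to Bmper, of 506 and 482 bp, which lay 18729 and 17733 bp upstream and so outside the limit of 10 kb. The farthest peaks inside that limit lay beyond the 3′ end of Nbl1, at up to 8592 bp from the gene.

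Among the DAN family genes, Grem1 encodes gremlin 1, a BMP antagonist known from limb and kidney development. It lies at chr2:113746164-113758646 on the minus strand. With 15000 EMPs its TSS lay in a peak of 4943 bp (chr2:113755825-113760767), from 2121 bp before to 2821 bp after it, and a second peak of 407 bp lay in intronic sequence, 3429 bp after the TSS. With 500 EMPs there were 2 peaks of 263 and 160 bp, at 1107 and 1703 bp after the TSS, again in intronic sequence. Their sequences, read from the GRCm38.p6 genome on the minus strand, are shown beside that of the Chrdl1 peak as examples of short stretches that both libraries marked. Most other 500-EMP peaks at the antagonist genes also lay in 15000-EMP peaks. The peaks are chr2:113757277-113757539 (7 CpG, in capitals), chr2:113756784-113756943 (2 CpG) and chrX:143395098-143395234 (4 CpG).
Grem1, 263 bp: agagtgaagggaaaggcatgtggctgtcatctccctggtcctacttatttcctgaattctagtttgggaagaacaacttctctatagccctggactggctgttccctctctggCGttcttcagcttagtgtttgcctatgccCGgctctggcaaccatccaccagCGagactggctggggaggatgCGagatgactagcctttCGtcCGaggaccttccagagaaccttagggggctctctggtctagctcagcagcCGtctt
Grem1, 160 bp: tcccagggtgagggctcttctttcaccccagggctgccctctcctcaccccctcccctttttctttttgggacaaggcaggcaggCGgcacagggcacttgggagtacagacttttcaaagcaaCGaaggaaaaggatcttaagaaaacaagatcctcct
Chrdl1, 137 bp: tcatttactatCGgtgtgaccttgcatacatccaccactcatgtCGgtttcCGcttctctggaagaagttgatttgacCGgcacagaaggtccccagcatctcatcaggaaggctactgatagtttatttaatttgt
Observed over expected CpG, the number of CpG dinucleotides divided by that predicted from the C and G content, was 0.365 in the 263-bp and 0.175 in the 160-bp stretch of Grem1, and 0.593 in the stretch of Chrdl1.

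Nbl1, which encodes the founding DAN protein, lies at chr4:139082284-139092993 on the minus strand. With 15000 EMPs a peak of 5055 bp (chr4:139089475-139094529) ran from 1536 bp before to 3518 bp after the TSS, and a peak of 805 bp lay farther along the gene. With 500 EMPs 3 peaks fell in that domain, of 763, 363 and 495 bp, the first pair downstream of the TSS and the last from position -994 to position -500 relative to it. Covered length in the TSS window was 1621 bp with 500 EMPs, the highest of the 9 genes, and 4537 bp with 15000 EMPs. A peak of 5226 bp beyond the 3′ end of Nbl1 also met the limit of 10 kb (chr4:139072519-139077744). It covered the start of the serotonin receptor gene Htr6, it was assigned to Htr6 in the authors' table, and 3 peaks of the 500-EMP library lay in it.

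Sost encodes sclerostin, which osteocytes secrete and which restrains bone formation. The gene lies at chr11:101962458-101967015 on the minus strand and spans 4558 bp. With 15000 EMPs it lay entirely in a peak of 5954 bp (chr11:101961223-101967176), the widest at any of the 9 genes, which began only 161 bp upstream of the TSS and ran 1235 bp past the 3′ end. A second peak of 323 bp lay 432 bp upstream of the TSS. With 500 EMPs the 3 peaks measured 510, 751 and 458 bp, all in the gene, the nearest 486 bp after the TSS. They covered 37.7% of the gene, more than at any other of the 9 genes. In the TSS window 1209 bp were covered with 500 EMPs and 3485 bp with 15000 EMPs.

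Sostdc1, a paralogue of Sost, lies at chr12:36314139-36318452 on the plus strand. It was covered by 0 bp of peaks in both libraries. The nearest peak lay 793 kb from its TSS with 500 EMPs and 791 kb with 15000 EMPs, in each case near the start of the homeobox gene Meox2. On the other side the nearest peak lay at 1408 kb with 500 EMPs and 1406 kb with 15000 EMPs.

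Follistatin, the product of Fst, binds activin almost irreversibly and also binds BMPs. Fst lies at chr13:114452290-114458951 on the minus strand and had a divided domain. With 15000 EMPs, 3 peaks of 1837, 2295 and 1435 bp followed each other, and the TSS lay in the interval between the first, which ended 156 bp upstream of it, and the second, which began 131 bp after it. Together they covered 4466 bp of the TSS window, so that Fst resembled most of the other genes in covered length although its TSS was free. That its TSS was free depended on the setting. With peaks within 1 kb joined, or with the TSS of any annotated transcript, all the marked genes had a covered TSS with 15000 EMPs. With 500 EMPs there were 3 peaks of 191, 227 and 278 bp, at 1324 bp upstream and at 579 and 2446 bp downstream of the TSS, with 696 bp covered in all. The 278-bp peak lay mostly between the 2295-bp and 1435-bp domains and shared 57 bp with the latter. The antisense gene Gm47040 starts 288 bp from the TSS of Fst, and its start lay in the 2295-bp peak.

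Peaks of the 500-EMP library at the antagonist genes lay almost entirely within the domains of the 15000-EMP library. Of the 21 peaks in or within 10 kb of the genes with 500 EMPs, 20 shared 1 bp or more with the 15000-EMP list (95.2%, 95% Wilson interval 77.3 to 99.2%), where 91.2% of the whole 500-EMP list did, and 19 lay wholly inside its peaks. In the other direction 11 of 20 peaks overlapped (55%, Wilson interval 34.2 to 74.2%), against 32.2% of the whole 15000-EMP list. This share of 55% depended on the setting. It was 0% when at least 50% of the peak had to be shared, and 90% with peaks within 3 kb joined. The intervals cover counting error only and treat neighbouring peaks as independent. In length, 7168 bp were shared, which was 95.2% of the 7526 bp covered with 500 EMPs and 15.3% of the 46712 bp covered with 15000 EMPs. Over the whole lists these shares of length were 93.0% and 23.1%, so that near-complete containment was seen across the whole 500-EMP list as well. Within the TSS window the share of the 15000-EMP length that was also covered with 500 EMPs was 35.7% at Nbl1 and 34.7% at Sost. It was 12.0% at Bmper, 10.7% at Chrdl1, 10.6% at Fst, 8.56% at Grem1, 4.30% at Nog and 2.77% at Chrd. Peaks at the antagonist genes had median widths of 278 bp with 500 EMPs and 1355 bp with 15000 EMPs, against 363 and 770 bp over the whole lists. Unlike the peaks at these genes, the whole lists also hold peaks far from any gene.

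The 500-EMP peaks lay mostly downstream of the TSS, as did those of protein-coding genes at large. The space searched was 10 kb upstream of the TSS, but the whole gene and 10 kb more downstream. A downstream majority was thus partly set by the rule. Of the 21 peaks with 500 EMPs, 17 lay downstream of the TSS (81.0%), 4 upstream (19.0%) and 0 across it, and 12 were wholly inside the gene (57.1%). Over all 11579 pairs of a protein-coding gene and a peak in it or within 10 kb, these shares were 69.8% downstream, 27.5% upstream, 2.66% across and 49.0% inside. The 20 peaks with 15000 EMPs comprised 9 downstream (45%), 4 upstream (20%) and 7 across the TSS (35%), against 65.6%, 23.0% and 11.4% of 16669 pairs. Of these 20 peaks 4 were wholly inside the gene (20%), against 46.6% of the pairs. A peak wider than its gene cannot lie inside it, so the shares inside also depend on gene length. The shares were not tested. Without the Htr6 domain there were 18 peaks with 500 EMPs, 14 of them downstream, and 19 with 15000 EMPs, 8 of them downstream. Along the genes in steps of 100 bp, coverage with 15000 EMPs reached 8 of 9 genes from position -700 to position -500, which was 1 gene above the plateau of 7 across the TSS. With 500 EMPs it reached at most 3 of 9 genes, at 600 to 800 bp and at 1200 and 1300 bp after the TSS. Marked protein-coding genes had their highest coverage downstream of the TSS in both libraries, 68.8% at 1000 bp with 15000 EMPs and 29.5% at 1300 bp with 500 EMPs, with a dip at the TSS itself.

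**Figure D3:**
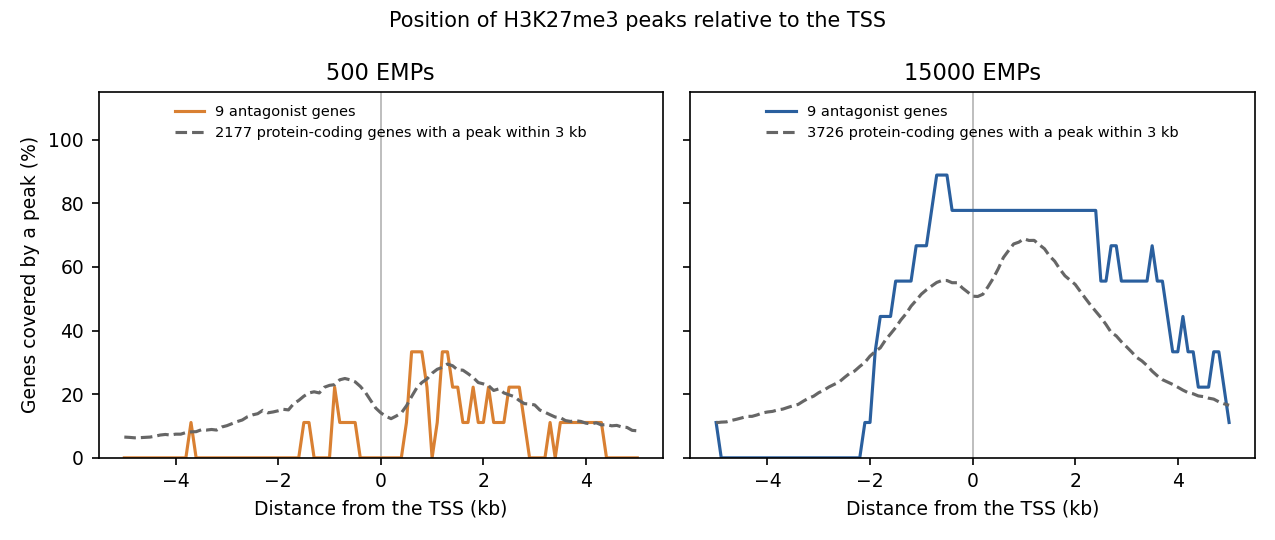
Percentage of genes covered by an H3K27me3 peak (y axis) at each distance from the TSS (x axis, kb in the direction of transcription) for the 9 antagonist genes (solid line) and for protein-coding genes with a peak within 3 kb (dashed line), with 500 EMPs on the left and 15000 EMPs on the right. The antagonist genes are at 0 at the TSS with 500 EMPs and form a plateau across it with 15000 EMPs, where 7 of 9 are covered.

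The DNA around the TSS was not itself a criterion in the choice of genes. The genes were chosen with earlier results of these data known, so it is not an independent feature. The observed over expected CpG was taken from 500 bp before to 500 bp after the TSS. Most of the antagonist genes had CpG-rich starts, with a median of 0.712 against 0.552 over all protein-coding genes. The values were 0.899 at Nog, 0.881 at Nbl1, 0.843 at Bmper, 0.833 at Fst, 0.712 at Grem1, 0.671 at Chrd and 0.470 at Chrdl1. Sost and Sostdc1 stood apart at 0.215 and 0.216, close to each other and far below the rest. When all protein-coding genes were divided into 4 classes of equal number by this value, both fell in the lowest class, in which 1.70% (500 EMPs) and 3.87% (15000 EMPs) of genes were marked within 3 kb. In the highest class, with Nog, Nbl1, Bmper and Fst, these shares were 11.4% and 17.8%, and in the third class, with Grem1 and Chrd, they were 16.2% and 26.9%. Chrdl1 was in the second class, with 10.4% and 19.5%.

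**Figure D4:**
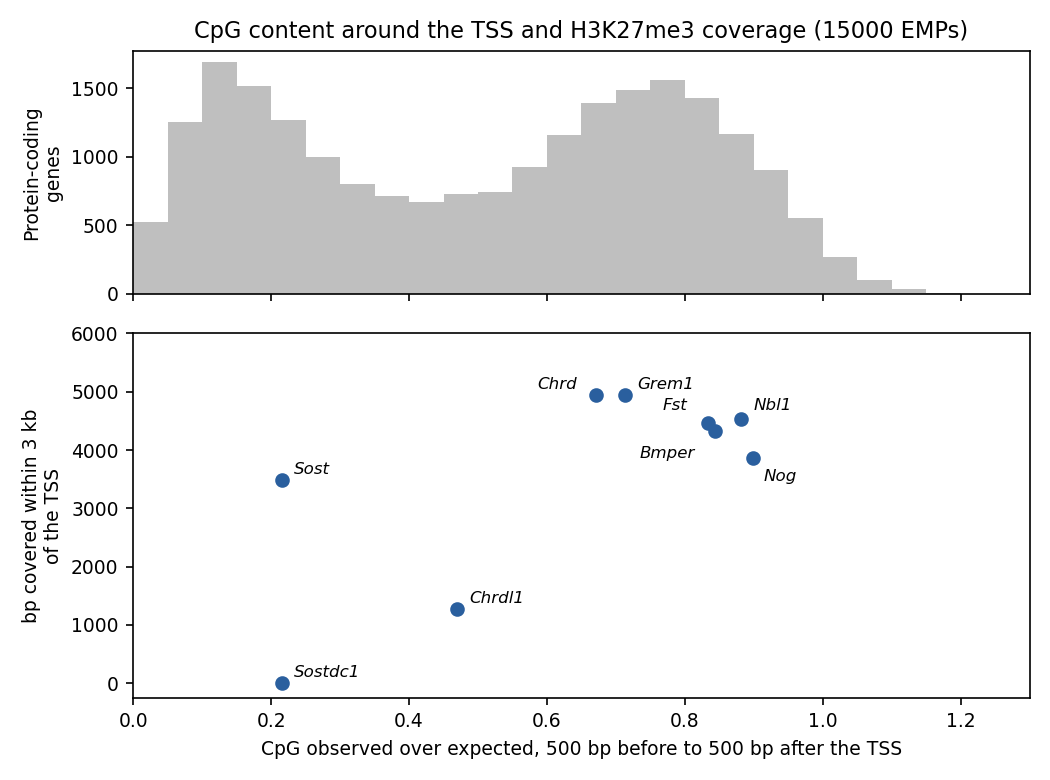
Upper panel, number of protein-coding genes (y axis) by observed over expected CpG from 500 bp before to 500 bp after the TSS (x axis); lower panel, bp covered by peaks within 3 kb of the TSS in the 15000-EMP library (y axis) against the same CpG value for the 9 antagonist genes, 1 point each. Sost and Sostdc1 share a CpG value of about 0.22, with 3485 bp covered at Sost and 0 bp at Sostdc1.

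Sost and Sostdc1 thus had starts with nearly the same observed over expected CpG, while Sost was marked in both libraries and Sostdc1 in neither. The number of CpG and the GC content of the same window differed, with 18 CpG and 57.8% GC at Sost and 11 CpG and 45.4% GC at Sostdc1. The 1-kb window with the most CpG within 10 kb of the TSS was centred 3200 bp after the TSS at Sost, held 82 CpG and had an observed over expected value of 0.800. All of it lay in the 15000-EMP peak and 47.8% of it in 500-EMP peaks. At Sostdc1 the richest window, 3300 bp after the TSS, held 33 CpG at a value of 0.525, and 0% of it was covered in either library. Chrdl1, which was marked, had a value of 0.463 in its richest window, with 42 CpG. At Nog, Chrd, Bmper, Grem1 and Nbl1 the richest window was centred within 400 bp of the TSS and lay wholly in the 15000-EMP peak. With 500 EMPs, by contrast, 0% of that window was covered at Nog, Chrd, Bmper and Grem1, and 21.2% at Nbl1. At Fst 71.4% of the window was covered with 15000 EMPs and at Chrdl1 32.6%, with 0% at both genes with 500 EMPs. Over the 21 peaks with 500 EMPs the median CpG value of 0.441 was above that of 0.280 over all 500-EMP peaks, and with 15000 EMPs the medians were 0.356 and 0.283. The whole lists also hold peaks far from any gene, and the peaks counted here include those of the Htr6 domain.

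Other genes of the BMP and activin pathway were counted by role, again as genes with a peak within 3 kb of the TSS and with the backgrounds given above. Of 9 further genes for secreted antagonists or related proteins, 2 had a peak with 500 EMPs and 4 with 15000 EMPs. Chrdl2 and Vwc2 had one in both, with 2314 and 362 bp covered with 500 EMPs and 4860 and 4029 bp with 15000 EMPs. Kcp and Fstl3 had one with 15000 EMPs alone, covering 2101 and 2196 bp, and Cer1, Dand5, Twsg1, Fstl1 and Vwc2l had none. Of 14 BMP ligand genes, 7 and 9 had a peak, among them Bmp2 (396 and 3450 bp with 500 and 15000 EMPs), Bmp7 (2223 and 5449 bp) and Gdf7 (3097 and 6001 bp, the whole window). For Bmp4, the ligand best known from blood-forming mesoderm, 0 bp were covered with 500 EMPs and 2218 bp with 15000 EMPs. Of 10 genes for activin and inhibin subunits, nodal and other GDFs, 2 and 4 had a peak. Inhbb, an activin subunit gene, had 1595 and 4610 bp covered and Nodal 1028 and 3580 bp.

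Farther down the pathway, peaks were found at 5 and 8 of 16 genes for receptors and coreceptors. Acvrl1, an endothelial type I receptor gene, had 1124 and 3555 bp covered, whereas the type II receptor genes Bmpr2, Acvr2a and Acvr2b had 0 bp in both libraries. Of 11 genes for SMADs, Smurf ubiquitin ligases and the decoy receptor Bambi, 0 had a peak with 500 EMPs and 3 with 15000 EMPs, Smad7, Smad9 and Smurf1. Receptor-activated Smad1, Smad2, Smad3 and Smad5 and the common Smad4 had 0 bp in both. Of the 4 Id genes, which are BMP targets that encode inhibitors of bHLH factors, Id2, Id3 and Id4 had a peak in both libraries and Id1 in neither. Of the 3 genes for tolloid-type proteases (Bmp1, Tll1 and Tll2), Tll2 had a peak with 500 EMPs and all had one with 15000 EMPs. Of 8 genes that mark or drive EMPs (Kit, Itga2b, Fcgr2b, Fcgr3, Runx1, Ptprc, Gata1 and Spi1), 0 had a peak in either library. Beside the shares of 9.94% and 17.0% over all protein-coding genes, a count of 0 among 8 is too small to tell EMPs from other cells, and a missing peak is no measure of expression. The nearest peak to any of their starts lay 4121 bp from Fcgr3 with 500 EMPs and 4057 bp with 15000 EMPs.

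**Figure D5:**
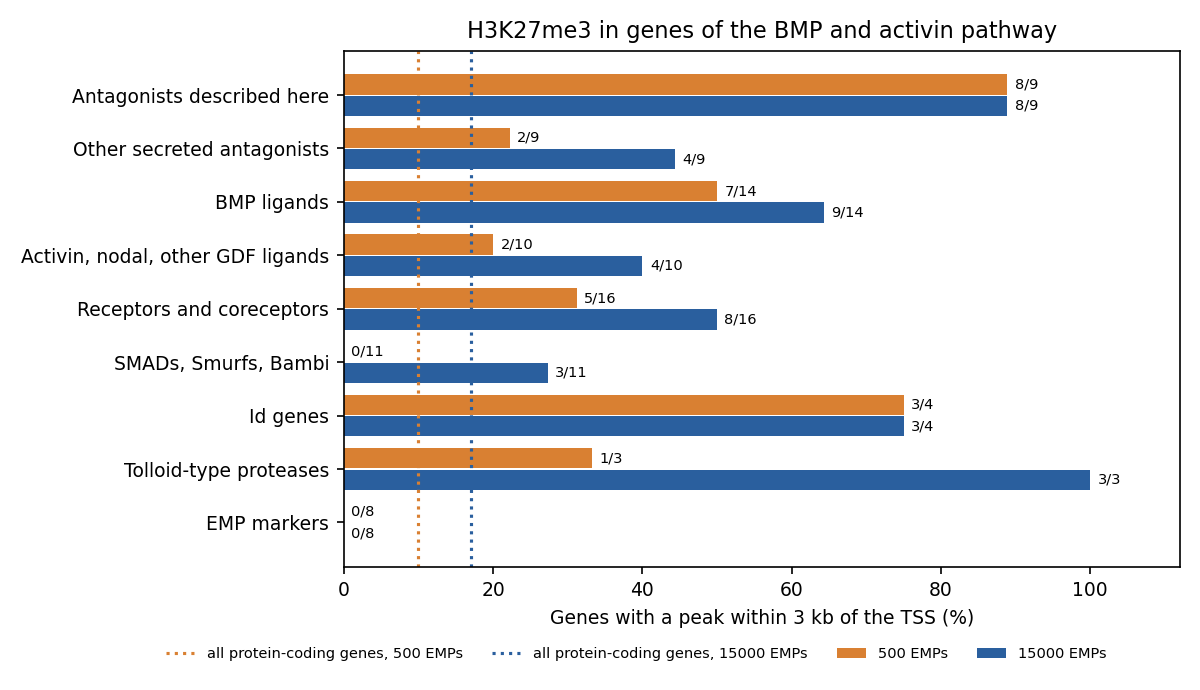
Percentage of genes with an H3K27me3 peak within 3 kb of the TSS (x axis) in lists of the BMP and activin pathway by role (rows), with 500 EMPs in orange, 15000 EMPs in blue, the count beside each bar and dotted lines at the shares of all protein-coding genes, 9.94% and 17.0%. The 9 antagonist genes stand at 8 of 9 in both libraries, and the genes that mark EMPs at 0 of 8.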

How the data were processed

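Per the submitters' processing notes, the authors aligned the reads to mm10 (GRCm38) with Bowtie2 2.2.1, processed them with SAMtools 1.9 (the study's reporting summary gives another version) and deepTools 3.5.1 and called broad peaks with MACS2 2.1.2 for each H3K27me3 library, with the IgG library of the same cell number as control, at p 0.01 for 500 EMPs and 0.05 for 15000 EMPs. A listing of the commands in the study names the other library under each threshold, and the lists were taken as labelled. The labels give 17 PCR cycles and reads of 76 bp for 500 EMPs, and 16 cycles and 59 bp for 15000 EMPs. The study states a lower depth and a much lower alignment rate for 500 EMPs, and their part in any difference was not tested. The files used here hold peak positions, and tables of genes and distances, without counts or scores. The study states that BigWig files are also available, and these were not used here. No file of an IgG library was analysed here.

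Positions are 1-based. Peaks were compared with GENCODE vM21 gene models and the RefSeq genome of GRCm38.p6 in Python 3.11.15 with pandas 2.3.3, numpy 2.4.6 and scipy 1.17.1. The promoter table held 5 of the 9 genes, not Nog, Chrdl1, Fst and Sostdc1. Interval arithmetic was tested on simulated data. The 9 genes were all named, and of other genes those of the pathway lists and those near or sharing a peak. The genes, the lists and the measures were chosen with earlier results of these data known. A further gene of the pathway is not reported here.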

Additional observations from a re-analysis of the deposited data

How the results depend on the processing

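Of 42 alternative settings, 30 left the value within 1.5 times the one reported (for overlap shares, within its Wilson interval) and 12 did not; 8 of the 42, those for peaks across the TSS, were chosen after seeing the data. Most that moved a value concerned the narrow 500-EMP peaks. With 500 EMPs the count of 8 genes with a peak within 3 kb of the TSS became 4 with a limit of 1 kb and 3 with peaks of at least 500 bp. That count was 6 without peaks of the smallest width, since Chrd and Chrdl1 rest on a single 137-bp peak each, and 7 with the authors' distances. The count of 8 in the gene or within 10 kb became 3 with peaks of at least 500 bp. The median covered length of 423 bp became 0 bp with peaks of at least 500 bp and 756 bp with peaks within 3 kb joined. The count of 0 genes with a peak across the TSS became 2 with peaks within 3 kb joined, and 2 with the TSS of any annotated transcript. The overlap share of 95.2% became 0% when at least 50% of both peaks had to be shared. With 15000 EMPs the overlap share of 55% became 0% when at least 50% of the peak, or of both peaks, had to be shared, 81.8% with peaks within 1 kb joined and 90% with peaks within 3 kb joined. The counts of genes and the median covered length with 15000 EMPs stayed within 1.5 times under every alternative run. Shares over all protein-coding genes under the alternative settings are not given here. No paired analysis was possible because each group had 1 library, and for the same reason no library could be left out. Depth, which the files used here do not give and which the study states to be lower with 500 EMPs, limits what the absence of a 500-EMP peak means.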
